A study of Homo sapiens with 15 samples.

Results

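ETV6 and RUNX1 are the genes joined in the ETV6::RUNX1 fusion of childhood B-lymphoblastic leukaemia, and every annotated transcript of both was followed here. All Ensembl transcripts of ETV6 and RUNX1 in the tables were taken, 22 of 167268 in all, of which 5 belong to ETV6 and 17 to RUNX1. They were examined singly, joined by annotated start site, and summed per gene.

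All RNA came from Reh, an established line of human B-cell precursor leukaemia. Reh cells carry ETV6::RUNX1 and have lost the other copy of ETV6. There were 15 libraries in 5 groups of 3. In the ETV6_WT group a V5-tagged wild-type ETV6 transgene was induced, in the ETV6_R399C group a V5-tagged ETV6 with a substitution in its DNA-binding ETS domain, and in the tagBFP group a blue fluorescent protein. All 3 of these groups were transduced populations of Reh that received doxycycline at 500 ng/ml for 48 h. In the sgERG group a guide against the ERG promoter was expressed with an inducible dCas9-KRAB (inactive Cas9 joined to a repressor domain), and in the sgCtrl group a non-targeting guide was expressed with it. Both of these groups carried the stable dCas9-KRAB construct, were sorted for the fluorescent reporter of the guide vector and received doxycycline at 500 ng/ml for 72 h. The labels do not say that replicates were separate cultures, so p-values measure the spread between these libraries.

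ETV6 is an ETS-family transcription factor that represses genes at sites with a GGAA core. RUNX1 binds DNA through its runt domain with its partner CBFB, and it is needed for definitive blood formation and for early B-cell development. RUNX1 is transcribed from a distal promoter, which gives the RUNX1c form, and a proximal promoter, which gives the RUNX1a and RUNX1b forms. The fusion is driven by the ETV6 promoter and joins the amino-terminal part of ETV6 to nearly all of RUNX1.

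Every listed identifier was an Ensembl transcript, so neither the fusion nor the transgenes have a row of their own. Reads from the ETV6 exons of the fusion or of a transgene are counted to ETV6, and reads from the RUNX1 exons of the fusion are counted to RUNX1. The values below are therefore sums, for RUNX1 over the normal gene and the fusion. For ETV6, whose other copy is lost in Reh, they are sums over the rearranged copy and, where present, the transgene.

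In the annotation (GENCODE 29, hg38), ETV6 lies on the forward strand of chromosome 12 and its main transcript, ETV6-202, runs from 11649854 to 11895402 in 8 exons. RUNX1 lies on the reverse strand of chromosome 21. Its distal transcript RUNX1-201, the RUNX1c form, starts at 35049344, and its proximal transcript RUNX1-202, the RUNX1b form, starts 160654 bp downstream at 34888690. Both end at 34787801. RUNX1-203, the short RUNX1a form, shares the proximal start and the first 725 of its 750 coding bases with RUNX1-202. The coding starts of the distal and proximal forms are shown because they are what separates the products of the 2 promoters. Capitals mark the coding bases that belong to one form alone and lower case the first bases that both share (GENCODE 29 transcripts, hg38).

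RUNX1-201 coding start: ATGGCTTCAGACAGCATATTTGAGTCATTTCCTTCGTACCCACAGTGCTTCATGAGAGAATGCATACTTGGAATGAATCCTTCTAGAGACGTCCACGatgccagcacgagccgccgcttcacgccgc
RUNX1-202 coding start: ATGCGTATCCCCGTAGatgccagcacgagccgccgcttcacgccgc

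The distal form has 97 coding bases of its own and the proximal form 16, after which 1343 bases are common to both. A read can therefore tell the promoters apart only near the 5′ end, and the division of the remaining reads between transcripts is Salmon's estimate.

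The promoters of both genes are shown because both genes had lower counts with the guide against ERG, an ETS factor that binds GGAA. Each stretch is the 250 bases before the RefSeq start (GRCh38.p14), with GGAA or its reverse complement TTCC in capitals.

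ETV6 promoter (chr12:11649424-11649673, forward strand): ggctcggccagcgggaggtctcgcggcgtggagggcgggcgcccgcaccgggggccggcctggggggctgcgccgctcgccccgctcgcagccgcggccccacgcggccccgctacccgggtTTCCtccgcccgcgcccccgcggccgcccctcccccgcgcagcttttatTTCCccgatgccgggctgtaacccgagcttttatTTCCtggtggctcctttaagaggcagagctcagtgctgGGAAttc
RUNX1 proximal promoter (chr21:34888700-34888949, reverse strand): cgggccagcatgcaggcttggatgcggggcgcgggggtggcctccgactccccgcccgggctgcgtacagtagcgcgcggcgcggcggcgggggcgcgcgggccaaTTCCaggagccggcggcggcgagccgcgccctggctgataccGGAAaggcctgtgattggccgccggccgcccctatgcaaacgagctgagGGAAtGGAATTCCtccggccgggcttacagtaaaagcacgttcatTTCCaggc

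GGAA was found 4 times on either strand in the ETV6 window and 6 times in the RUNX1 window, and 92.7% of 35116 promoter windows of this length held it. The longer ETS-type motif CCGGAA was found 0 times in the ETV6 window and 1 time in the RUNX1 window, overlapping a GGAA match there, and 14.5% of windows held it. The runt-domain motifs TGTGGT and TGCGGT were in neither window, against 11% and 5.84% of all windows on either strand. The distal RUNX1 promoter sequence was not analysed here.

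**Figure D1:**
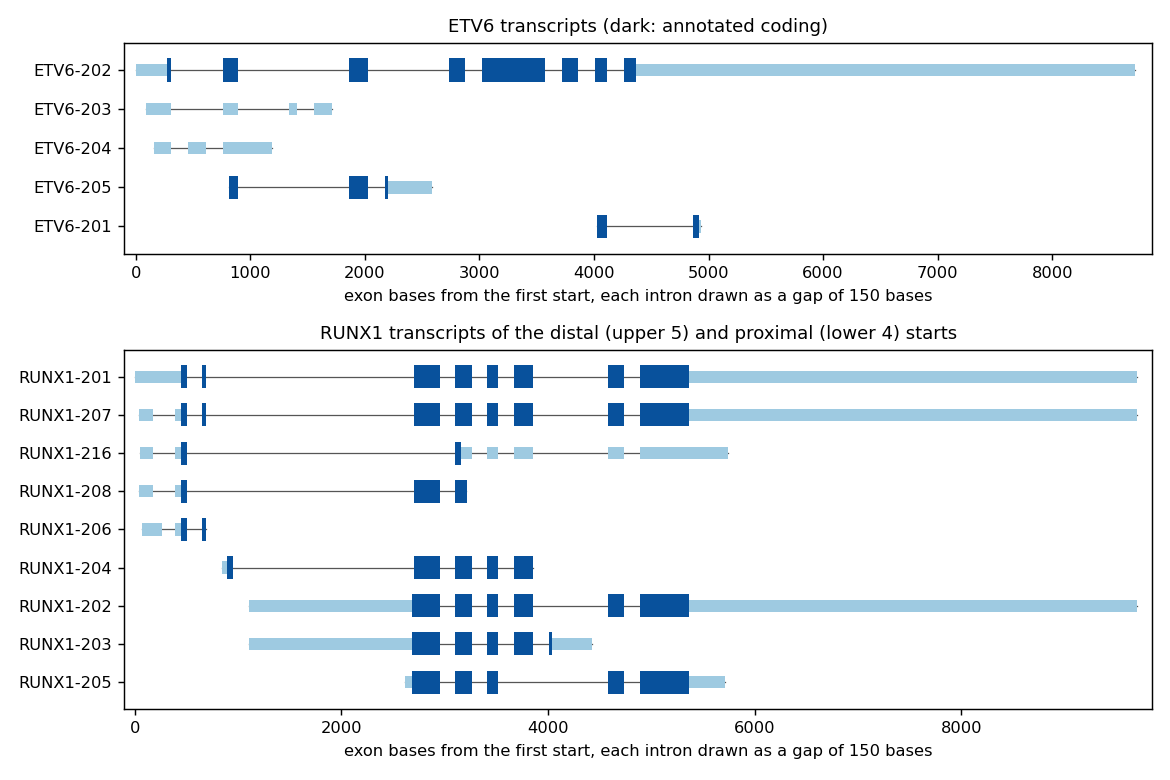
Exon maps of the 5 ETV6 transcripts and of the 9 RUNX1 transcripts that start at the distal or proximal promoter (GENCODE 29), read from left to right in the direction of transcription, with exons to scale in bases along the horizontal axis and introns shortened. Dark blocks are coding: ETV6-201 holds a part of exon 7 and a short piece of exon 8, and the RUNX1 transcripts differ at the 5′ end and share most of their later exons.

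Library totals ran from 22040338 to 52481351 reads. Of 9 B-lineage marker genes, measured in reads per 1000000 (RPM), 8 stood above 1 RPM in every group and VPREB1 was listed with 0 reads. Their summed level was 4913 to 4989 RPM with ETV6_WT, 4665 to 4807 with ETV6_R399C, 3746 to 3811 with tagBFP, 3931 to 4003 with sgERG and 4213 to 4215 with sgCtrl, while the summed T-lineage markers reached at most 1.25 RPM. The 4 myeloid markers summed to 15.1 to 20.6 RPM in the transgene and tagBFP groups, 29 to 33.1 with sgERG and 31.1 to 31.6 with sgCtrl. The 2 stromal markers summed to 35.8 to 39.6 RPM with ETV6_WT, 40.2 to 40.5 with ETV6_R399C, 35.5 to 36.3 with tagBFP, 85.6 to 92.1 with sgERG and 71.5 to 75.0 with sgCtrl, and of 3 erythroid markers HBA1 and HBB had 0 reads in every group. The B-lineage sum thus moved with the groups, the stromal sum was higher with sgERG than with sgCtrl, and their part in the results below was not tested. ERG, the target of the guide, averaged 109 ± 4.35 counts per 1000000 (CPM) with sgERG and 545 ± 7.21 CPM with sgCtrl (SD, n = 3 each).

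The ETV6 count checks the transgenes. Summed over its transcripts, ETV6 stood at 450.1, 482.7 and 480.1 CPM with ETV6_WT, at 351.5, 378.1 and 370.8 CPM with ETV6_R399C, and at 5.89, 5.81 and 5.32 CPM with tagBFP. Each library of either transgene was far above each tagBFP library, and all ETV6_WT libraries were above all ETV6_R399C libraries. The log2 fold change was 6.37 ± 0.05 SE for ETV6_WT over tagBFP (edgeR's quasi-likelihood test, adjusted p = 2.05e-14) and 5.99 ± 0.05 SE for ETV6_R399C over tagBFP (edgeR adjusted p = 4.21e-14). These comparisons share the tagBFP libraries. Between the transgenes, ETV6_WT over ETV6_R399C, the log2 fold change was 0.38 ± 0.04 SE (edgeR adjusted p = 2.48e-05). Across all genes, the same test called 36.5% with ETV6_WT over tagBFP, 40.9% with ETV6_R399C over tagBFP and 21.4% with ETV6_WT over ETV6_R399C, where 12.1% were higher and 9.29% lower.

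Without a transgene ETV6 was a low count that differed between the guides. Reh has lost its other copy of ETV6, so this count cannot be read as that of a normal ETV6 gene. It stood at 6.55, 7.45 and 6.49 CPM with sgERG and at 15.2, 12.9 and 12.9 CPM with sgCtrl, from 185 to 239 reads in each sgERG library and 457 to 640 in each sgCtrl library. All sgERG libraries were below all sgCtrl libraries. ETV6 fell with sgERG, to 49.9% of sgCtrl (log2 -1.0 ± 0.10 SE, edgeR adjusted p = 6.98e-05), where 14.6% of all genes were called, 6.89% higher and 7.74% lower. In bulk RNA, fewer cells that make a transcript and less of it per cell cannot be told apart. Over the 5 groups the order of the ETV6 level was ETV6_WT, ETV6_R399C, sgCtrl, sgERG and tagBFP, and no neighbouring groups in that order overlapped. The guide groups and the transgene groups differ in vector, sorting and hours of induction. The effective length that Salmon gave to a transcript also differed between the experiments. For ETV6-202 it was 5623 to 5641 bases in the transgene and tagBFP libraries and 5684 to 5699 bases in the guide libraries. A difference in level between these experiments cannot be told apart from any of those.

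RUNX1 was highest in the guide experiment and moved in all 4 comparisons. It stood at 264.4, 268.3 and 285.6 CPM with ETV6_WT, at 335.0, 330.5 and 321.7 CPM with ETV6_R399C and at 255.6, 253.4 and 226.4 CPM with tagBFP. The ETV6_R399C libraries were above both other groups, and the lowest ETV6_WT library was just above the highest tagBFP library. RUNX1 rose with ETV6_R399C over tagBFP by a log2 of 0.40 ± 0.05 SE (edgeR adjusted p = 3.42e-05). It also rose with ETV6_WT over tagBFP, by 0.15 ± 0.05 SE (edgeR adjusted p = 0.0221), and was lower with ETV6_WT than with ETV6_R399C by -0.25 ± 0.05 SE (edgeR adjusted p = 0.00257).

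The rise with ETV6_WT did not pass without ETV6_WT replicate 2 (log2 0.14, edgeR adjusted p = 0.0621), without ETV6_WT replicate 3 (0.12, edgeR adjusted p = 0.0875) or without tagBFP replicate 3 (0.08, edgeR adjusted p = 0.105). The difference between ETV6_WT and ETV6_R399C did not pass when the average transcript length entered the fit (log2 -0.15, edgeR adjusted p = 0.121).

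With the guide against ERG, RUNX1 stood at 459.6, 465.3 and 450.1 CPM, and with the control guide at 663.4, 627.5 and 614.4 CPM. Every sgERG library was below every sgCtrl library. RUNX1 fell to 72.0% of sgCtrl (log2 -0.47 ± 0.04 SE, edgeR adjusted p = 2.25e-05), and leaving out any 1 library kept it between -0.50 and -0.44. The order of the RUNX1 level was sgCtrl, sgERG, ETV6_R399C, ETV6_WT and tagBFP, and no neighbours in it overlapped. ETV6 and RUNX1 were thus both lower with sgERG, by log2 differences of -1.0 and -0.47.

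**Figure D2:**
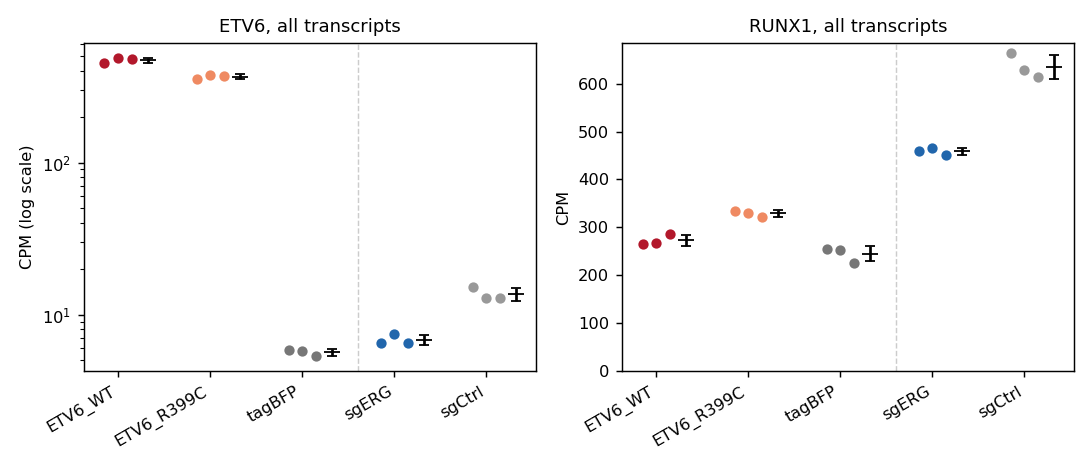
Level of ETV6 (left, CPM on a log axis) and RUNX1 (right, CPM on a linear axis from 0) in each library, with each group's mean and SD beside its 3 points and a dashed line between the 2 experiments. ETV6 separates both transgene groups, at 351.5 to 482.7 CPM, from the other 9 libraries, at 5.32 to 15.2 CPM, and RUNX1 is lower with sgERG than with sgCtrl.

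Levels per length set both genes on 1 scale. RUNX1 transcripts summed to 107.2 transcripts per 1000000 (TPM) with ETV6_WT, 124.8 with ETV6_R399C, 94.2 with tagBFP, 159.6 with sgERG and 214.4 with sgCtrl. ETV6-202, the full-length ETV6 transcript, averaged 82.7 ± 3.84 TPM with ETV6_WT, 68.0 ± 2.46 with ETV6_R399C, 0.953 ± 0.0769 with tagBFP, 1.37 ± 0.108 with sgERG and 2.71 ± 0.250 with sgCtrl (SD, n = 3 each). RUNX1-202, the main RUNX1 transcript, averaged 27.7 ± 0.370 TPM with ETV6_WT, 37.6 ± 1.84 with ETV6_R399C, 25.2 ± 2.57 with tagBFP, 50.6 ± 5.72 with sgERG and 67.6 ± 2.63 with sgCtrl. Per length, ETV6-202 was thus above RUNX1-202 in both transgene groups and below it in the other 3 groups. The annotated coding part of ETV6-202 is 1356 of its 5989 bases, and its TPM divides by the whole effective length. Without a transgene, reads given to ETV6-202 can come from the ETV6 exons of the fusion and need not mean a full-length transcript.

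Among ETV6 transcripts, ETV6-202 took most of the reads in every group. It stood at 410, 443 and 439.6 RPM with ETV6_WT, at 330.8, 354.2 and 345 RPM with ETV6_R399C and at 5.42, 5.12 and 4.73 RPM with tagBFP. With sgERG it stood at 5.93, 6.52 and 5.67 RPM and with sgCtrl at 13.2, 11.4 and 11.2 RPM. The groups were in the same order as for the gene and did not overlap. In the test over single transcripts the log2 fold change of ETV6-202 was 6.41 ± 0.06 SE for ETV6_WT over tagBFP (edgeR adjusted p = 6.11e-09), and 6.08 ± 0.06 SE for ETV6_R399C over tagBFP (edgeR adjusted p = 8.44e-09). Its log2 difference was -1.0 ± 0.12 SE with sgERG over sgCtrl (edgeR adjusted p = 0.0174), which did not pass once any single library was left out (edgeR adjusted p from 0.0535 to 0.0982). Of all transcripts tested, 4.73% were called with ETV6_WT over tagBFP, 5.59% with ETV6_R399C over tagBFP and 0.913% with sgERG. The remaining transcripts, ETV6-203, ETV6-204 and ETV6-205, had at most 13.7 reads in any library and were not tested.

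ETV6-201 was counted only in the transgene libraries. It is an annotated fragment of 160 bases in 2 exons: 90 bases of exon 7 of ETV6-202, on chromosome 12 from 11885937 to 11886026, and 70 bases from inside exon 8, whose beginning is skipped. The first exon is shown because it holds the codon that the R399C substitution changes in the ETV6_R399C transgene. The 3 bases of the reference codon, at 11885968 to 11885970, are in capitals (GENCODE 29, hg38, forward strand).

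ETV6 exon 7 part in ETV6-201: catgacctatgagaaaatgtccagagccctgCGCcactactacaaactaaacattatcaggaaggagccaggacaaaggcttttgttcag

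It had 322.2, 369.8 and 313.7 reads with ETV6_WT, 153.8, 145.5 and 177.2 reads with ETV6_R399C and 0 reads in each of the other 9 libraries. This was 13.8, 13.1 and 12.8 RPM with ETV6_WT and 5.61, 6.60 and 7.11 RPM with ETV6_R399C. Against the limit that 0 reads over the tagBFP group allow, 3 reads or 0.0333 RPM, the mean was at least 397-fold higher with ETV6_WT and at least 193-fold higher with ETV6_R399C. Such limits cover counting error only. In its common form the fusion holds ETV6 only up to exon 5, and the transgene brought in a source of exon 7. These limits and the tests against tagBFP thus restate that a transgene was present.

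The 2 transgene groups also differed from each other in the reads given to ETV6-201. Its second exon, from 11891541 to 11891610, lies beyond the annotated coding end of ETV6-202 at 11891043. The R399C codon lies in its first exon, where the ETV6_R399C transgene differs from the reference. These reads therefore need not mean a transcript of this form, and the part of either limit in the difference was not tested. All ETV6_WT libraries were above all ETV6_R399C libraries, by a log2 of 1.06 ± 0.12 SE for the reads of its start site (edgeR adjusted p = 0.00404), against 0.35 ± 0.04 SE for the start site of ETV6-202, which ETV6-203 and ETV6-204 share (edgeR adjusted p = 7.23e-04). Fitted as a single transcript it differed by 1.05 ± 0.13 SE (edgeR adjusted p = 0.0277), which did not pass once any single library was left out (edgeR adjusted p from 0.0605 to 0.120). Of all start sites, 6.55% were called in this comparison. Whether the ETV6-201 start took a different share of ETV6 reads in ETV6_WT and ETV6_R399C did not pass (edgeR's diffSpliceDGE, log2 0.48, adjusted p = 0.954, unadjusted p = 0.0146). The share of ETV6-201 in the ETV6 reads did not overlap between these groups (exact two-sided permutation p = 0.1, the smallest possible), so equal shares were not shown. Relative to tagBFP its share did differ with ETV6_WT (edgeR diffSpliceDGE adjusted p = 0.00232) and with ETV6_R399C (edgeR diffSpliceDGE adjusted p = 0.0335). In these comparisons 0.444% and 0.35% of the start sites tested for use were called, which are those of genes with 2 or more tested start sites. The second of these did not pass without any 1 of the 3 tagBFP libraries (edgeR adjusted p from 0.137 to 0.244). Both calls restate that the transgene groups had these reads and tagBFP had none.

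ETV6-201 shows how far reads and TPM can part for a short transcript. It held 2.98% of the ETV6 reads with ETV6_WT and 1.84% with ETV6_R399C, but 85.5% and 78.8% of the ETV6 TPM. Its effective length in the deposited tables averaged 29 bases with ETV6_WT, 27.9 with ETV6_R399C and 30.1 with tagBFP, and 9.90 with sgERG and 10.0 with sgCtrl, while that of ETV6-202 averaged 5631 to 5692 bases. The summed ETV6 TPM, at 576 with ETV6_WT and 326 with ETV6_R399C, is therefore mostly this fragment, and reads were used for the comparisons of ETV6.

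**Figure D3:**
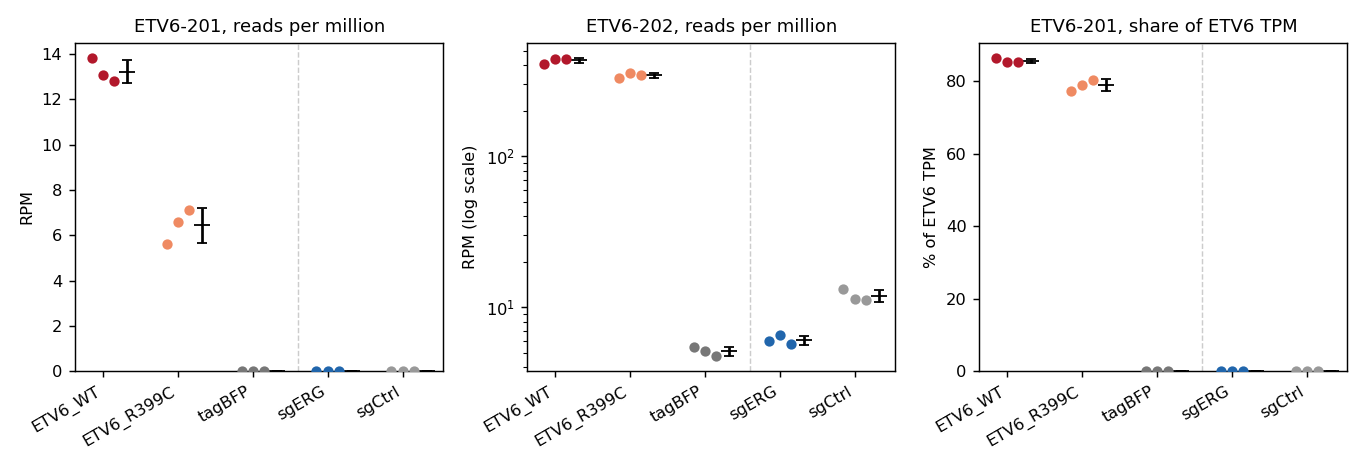
ETV6-201 and ETV6-202 in RPM (left, from 0; middle, log axis) and the share of ETV6-201 in the ETV6 TPM (right, percent) in each library, with each group's mean and SD beside its points. ETV6-201 has reads in the 6 transgene libraries only, where it makes up 77.2% to 86.2% of the ETV6 TPM.

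For RUNX1, transcripts of the proximal promoter held most reads and those of the distal promoter a smaller part in every library. The proximal group joins RUNX1-202, RUNX1-203, RUNX1-204 and RUNX1-205, and the distal group RUNX1-201, RUNX1-206, RUNX1-207, RUNX1-208 and RUNX1-216, each with starts within 5 kb. Proximal transcripts summed to 201.1, 198.1 and 200.8 RPM with ETV6_WT, 267.2, 260.0 and 249.7 RPM with ETV6_R399C and 201.6, 186.3 and 165.7 RPM with tagBFP. With sgERG they summed to 315.2, 314.4 and 285.7 RPM and with sgCtrl to 425.8, 401.9 and 390.2 RPM. ETV6_R399C stood above ETV6_WT and tagBFP without overlap, ETV6_WT and tagBFP overlapped, and sgERG stood below sgCtrl without overlap.

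Distal transcripts did not separate the transgene groups from tagBFP. They summed to 46.2, 52.6 and 65.0 RPM with ETV6_WT, 50.5, 52.8 and 52.2 RPM with ETV6_R399C and 40.5, 54.8 and 44.8 RPM with tagBFP, and these 3 groups overlapped. With sgERG they summed to 99.8, 104.6 and 116.3 RPM and with sgCtrl to 164.5, 154.9 and 157.3 RPM, without overlap. The exact two-sided permutation p was 0.1, the smallest that 3 against 3 libraries allow, for the proximal sum in ETV6_R399C over tagBFP, ETV6_WT over ETV6_R399C and sgERG over sgCtrl. For the distal sum it was 0.1 in sgERG over sgCtrl, 0.8 in ETV6_WT over ETV6_R399C and 0.4 with either transgene over tagBFP.

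**Figure D4:**
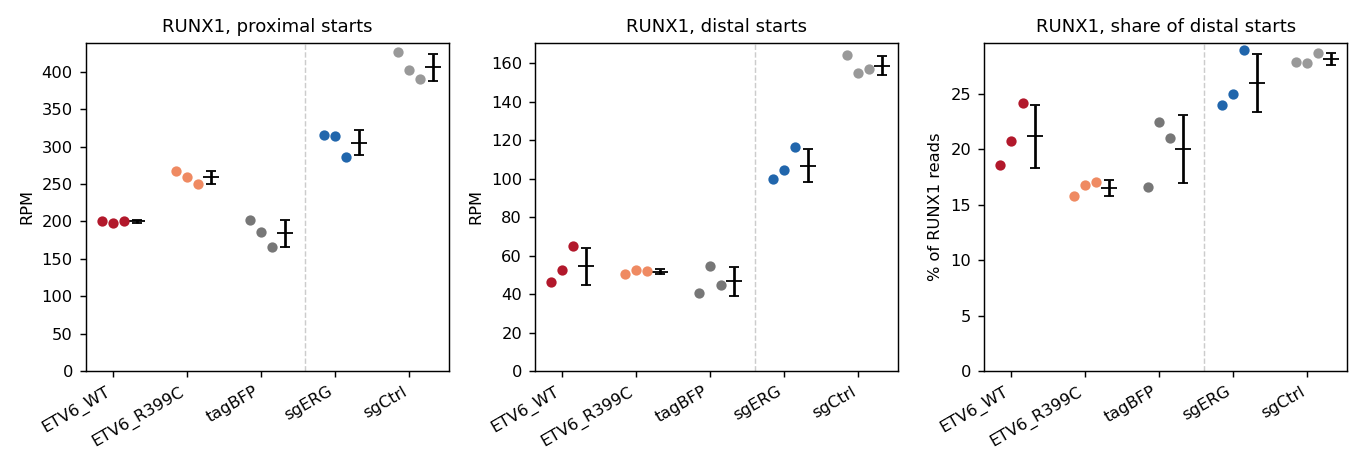
RUNX1 reads from the proximal starts (left, RPM), from the distal starts (middle, RPM) and the distal share of all RUNX1 reads (right, percent), per library, with each group's mean and SD and axes from 0. Proximal reads are higher with ETV6_R399C than with tagBFP, and proximal and distal reads are lower with sgERG than with sgCtrl. The distal share with ETV6_R399C lies at 15.7% to 17.1%.

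The fit over all start sites gave the change in the reads of each start with its error. Transcripts from the proximal start of RUNX1-202 and RUNX1-203 rose with ETV6_R399C over tagBFP by a log2 of 0.48 ± 0.05 SE (edgeR adjusted p = 4.27e-04). They were lower with ETV6_WT than with ETV6_R399C by -0.36 ± 0.05 SE (edgeR adjusted p = 0.00536), and fell with sgERG by -0.42 ± 0.05 SE (edgeR adjusted p = 0.00351). With ETV6_WT over tagBFP the proximal start differed by 0.12 ± 0.05 SE (edgeR adjusted p = 0.198), and it passed when tagBFP replicate 1 was left out (log2 0.18, edgeR adjusted p = 0.0341). Each of the 3 calls passed with any 1 library left out.

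The distal start fell with sgERG by a log2 of -0.57 ± 0.07 SE (edgeR adjusted p = 0.00307), and passed with any 1 library left out. It differed by 0.23 ± 0.13 SE with ETV6_WT over tagBFP (edgeR adjusted p = 0.315), by 0.13 ± 0.13 SE with ETV6_R399C over tagBFP (edgeR adjusted p = 0.605) and by 0.10 ± 0.13 SE with ETV6_WT over ETV6_R399C (edgeR adjusted p = 0.787). No transgene comparison was called for the distal start. The start of RUNX1-204, a proximal coding transcript that lacks the last exons of RUNX1-202, fell with sgERG by -0.61 ± 0.13 SE (edgeR adjusted p = 0.0435). This call did not pass when any 1 of 5 of the 6 libraries was left out, sgCtrl replicate 3 being the exception (edgeR adjusted p from 0.0338 to 0.180 over all 6). Nor did it pass with starts joined within 100 bp (edgeR adjusted p = 0.0709) or with the replicate number as a block (edgeR adjusted p = 0.126).

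RUNX1 has 12 start sites, of which 6 were tested in the transgene groups and 5 in the guide groups. None was called with ETV6_WT over tagBFP, 1 was higher with ETV6_R399C over tagBFP, 1 was lower with ETV6_WT than with ETV6_R399C, and 3 were lower with sgERG. Over all start sites, 16.2% were called with ETV6_WT over tagBFP (7.77% higher, 8.4% lower) and 18.6% with ETV6_R399C over tagBFP (8.71% higher, 9.91% lower). With ETV6_WT over ETV6_R399C 3.0% were higher and 3.56% lower, and with sgERG 4.04% were called (1.79% higher, 2.25% lower).

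Whether the reads of the RUNX1 start sites changed unequally was tested with diffSpliceDGE of edgeR. The distal share of RUNX1 reads was 18.5%, 20.7% and 24.2% with ETV6_WT, 15.7%, 16.8% and 17.1% with ETV6_R399C and 16.5%, 22.5% and 21% with tagBFP. With ETV6_WT every library had a larger distal share than any ETV6_R399C library, and the tagBFP libraries overlapped both groups. The distal start's use differed by a log2 of 0.25 between ETV6_WT and ETV6_R399C (edgeR adjusted p = 0.0712, unadjusted p = 1.55e-04) and by -0.19 between ETV6_R399C and tagBFP (edgeR adjusted p = 0.318, unadjusted p = 0.00303), neither past the threshold. These differences passed without ETV6_WT replicate 1 (log2 0.31, edgeR adjusted p = 0.0106) and without tagBFP replicate 1 (log2 -0.28, edgeR adjusted p = 0.0228). Of the start sites tested for use, 0.163% were called in ETV6_WT over ETV6_R399C.

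With sgERG the distal share was 24.0%, 24.9% and 28.9%, and with sgCtrl 27.8%, 27.8% and 28.7%. The groups overlapped, and the use of the distal start differed by a log2 of -0.08 (edgeR, unadjusted p = 0.1), where 0.142% of the start sites tested for use were called. The fall of RUNX1 with sgERG was thus measured in the reads given to both start groups, without a detected difference between them. RUNX1-201, RUNX1-206 and RUNX1-207 of the distal group hold the exon that the common form of the fusion joins to ETV6. Reads of the fusion, which the ETV6 promoter drives, can be counted to either group. A change at the distal or proximal RUNX1 promoter itself was therefore not measured.

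Per length, the distal part of RUNX1 was larger than by reads. Distal transcripts made up 51.5% ± 3.05 of the RUNX1 TPM with ETV6_WT, 45.5% ± 1.16 with ETV6_R399C, 48.0% ± 2.39 with tagBFP, 42.8% ± 3.85 with sgERG and 43.0% ± 1.08 with sgCtrl (SD, n = 3 each). The largest distal TPM came from RUNX1-208, a coding fragment of 610 bases, in the transgene and tagBFP groups, and from RUNX1-216, of 1710 bases, in the guide groups. RUNX1-216 averaged 19.2 ± 3.37 TPM with ETV6_WT, 22.5 ± 0.717 with ETV6_R399C, 12.7 ± 1.26 with tagBFP, 36.1 ± 10.8 with sgERG and 44.9 ± 6.37 with sgCtrl. RUNX1-208 averaged 25.7 ± 2.45 TPM with ETV6_WT, 26.4 ± 2.99 with ETV6_R399C, 21.2 ± 2.04 with tagBFP, 14.2 ± 0.363 with sgERG and 18.5 ± 2.30 with sgCtrl. In TPM the distal sum with either transgene, 55.2 ± 3.24 with ETV6_WT and 56.8 ± 1.97 with ETV6_R399C, did not overlap that with tagBFP, 45.1 ± 3.51 (exact two-sided permutation p = 0.1 each, the smallest possible). The same groups overlapped in distal reads, and what part Salmon's division of reads among the distal transcripts had in this was not tested.

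RUNX1-202, which encodes RUNX1b, had the highest mean of the RUNX1 transcripts by reads and by TPM in all 5 groups. It stood at 180.7, 176.3 and 175.1 RPM with ETV6_WT, at 241.3, 236.7 and 222.1 RPM with ETV6_R399C and at 180.6, 164.7 and 151.0 RPM with tagBFP. The ETV6_R399C libraries were above the others, and ETV6_WT overlapped tagBFP. RUNX1-202 rose with ETV6_R399C over tagBFP by a log2 of 0.50 ± 0.06 SE (edgeR adjusted p = 0.00309), and differed by 0.11 ± 0.06 SE with ETV6_WT over tagBFP (edgeR adjusted p = 0.458). It was lower with ETV6_WT than with ETV6_R399C by -0.39 ± 0.06 SE (edgeR adjusted p = 0.0268, from 0.0502 to 0.113 with 1 library left out), a comparison in which 1.36% of transcripts were called.

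With sgERG RUNX1-202 stood at 289.0, 288.6 and 241.4 RPM and with sgCtrl at 382.2, 358.4 and 357.7 RPM. The groups did not overlap, and sgERG replicate 3 was the lowest library. The log2 difference of -0.44 ± 0.08 SE did not pass over all transcripts (edgeR adjusted p = 0.0664), and it passed without sgERG replicate 3 (-0.35, edgeR adjusted p = 0.0245).

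RUNX1-203, the RUNX1a form that lacks the transactivation part of the protein, was far below RUNX1-202. It stood at 6.87, 6.33 and 9.58 RPM with ETV6_WT, 7.72, 6.88 and 8.85 RPM with ETV6_R399C and 4.55, 7.41 and 4.14 RPM with tagBFP, and no comparison of these groups was called. With sgERG it stood at 2.43, 1.34 and 17.7 RPM, against 7.58, 8.72 and 6.07 RPM with sgCtrl. The same sgERG library that was low for RUNX1-202 was high for RUNX1-203, with 565.2 reads against 87.0 and 47.7 in the other sgERG libraries. The 2 transcripts share their start and most coding exons, and how far the division of reads between them entered here was not tested. Summed over their shared start, the groups did not overlap and the fall with sgERG was called, as given above.

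RUNX1-201, the full RUNX1c form, was low. It stood at 18.2, 10.4 and 16.2 RPM with ETV6_WT, 15.3, 13.6 and 11.9 RPM with ETV6_R399C, 5.78, 14.0 and 12.6 RPM with tagBFP, 13.4, 11.5 and 7.50 RPM with sgERG and 20.4, 17.6 and 11.6 RPM with sgCtrl. Its groups overlapped within each experiment, and it was called in none of the 4 comparisons. RUNX1-207 has the same coding length of 1440 bases, and an intron divides what is the long first exon of RUNX1-201. It was counted mostly in the guide experiment, at 52.1, 54.5 and 50.3 RPM with sgERG and 90.3, 75.4 and 98 RPM with sgCtrl, and at 0 to 17.1 RPM in the other 9 libraries.

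RUNX1-207 fell with sgERG by a log2 of -0.76 ± 0.09 SE (edgeR adjusted p = 0.0183). That call did not pass without sgERG replicate 1, 2 or 3 or without sgCtrl replicate 1 or 3 (edgeR adjusted p from 0.0718 to 0.113), and passed without sgCtrl replicate 2. In the transgene experiment, ETV6_WT replicate 1 and ETV6_R399C replicate 1 had 0 reads of RUNX1-207 and the other libraries had 4.29 to 17.1 RPM, and no comparison was called.

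RUNX1-216, annotated for nonsense-mediated decay, was the largest distal transcript by reads in the transgene and tagBFP groups. It skips exons 2 and 3 of RUNX1-201, which are 39 and 254 bases long, and has 114 annotated coding bases. It stood at 20.6, 23.4 and 29 RPM with ETV6_WT, 27.9, 28.2 and 26.9 RPM with ETV6_R399C and 16, 18.2 and 15.2 RPM with tagBFP. Both transgene groups were above tagBFP in every library. RUNX1-216 rose with ETV6_R399C by a log2 of 0.75 ± 0.12 SE (edgeR adjusted p = 0.0101) and with ETV6_WT by 0.58 ± 0.12 SE (edgeR adjusted p = 0.0344), both over tagBFP.

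The call with ETV6_R399C passed with any 1 library left out. The call with ETV6_WT did not pass without ETV6_WT replicate 2 or 3 or without any 1 tagBFP library (edgeR adjusted p from 0.0563 to 0.127), nor without the filter on low counts (edgeR adjusted p = 0.0507). With sgERG RUNX1-216 stood at 30.8, 34.5 and 54.5 RPM and with sgCtrl at 48.2, 57.0 and 43.1 RPM. These groups overlapped, and the log2 difference was -0.33 ± 0.22 SE (edgeR adjusted p = 0.741).

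Of 17 RUNX1 transcripts, 11 were tested in the transgene groups and 10 in the guide groups. Called were 1 higher with ETV6_WT over tagBFP, 2 higher with ETV6_R399C over tagBFP, 1 lower with ETV6_WT than with ETV6_R399C and 1 lower with sgERG. Over all transcripts, 2.57% were higher and 2.16% lower with ETV6_WT over tagBFP, 3.05% and 2.54% with ETV6_R399C over tagBFP, 0.463% and 0.893% with ETV6_WT over ETV6_R399C, and 0.315% and 0.598% with sgERG. Salmon's own error in dividing reads between transcripts is not in these tests.

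**Figure D5:**
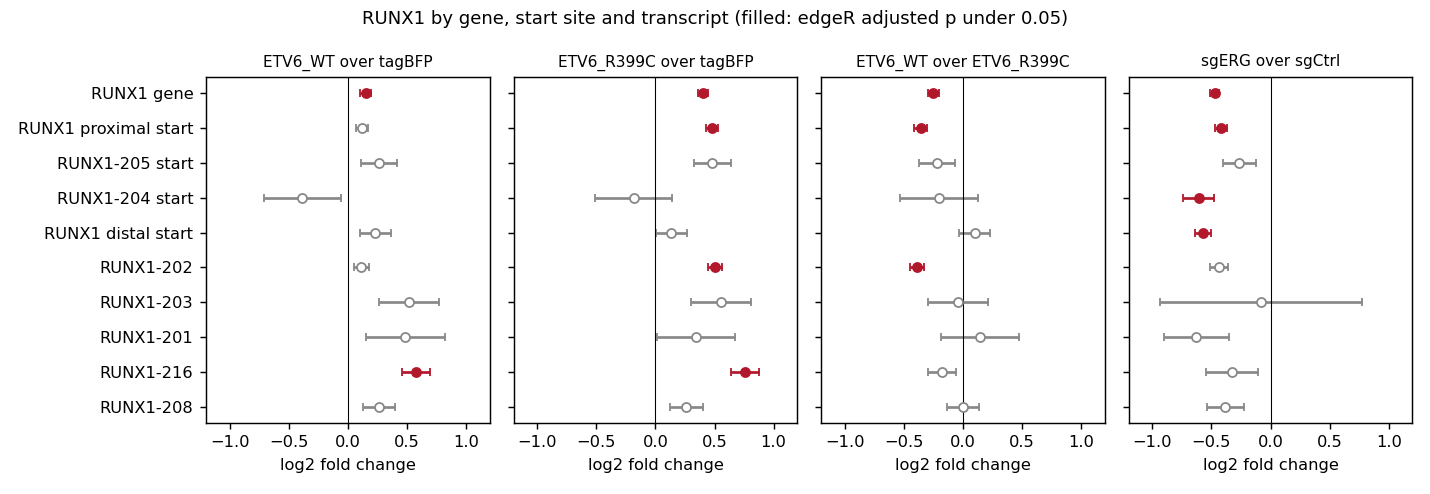
Log2 fold changes of RUNX1 as a gene, by start site and by transcript in the 4 comparisons, with bars of 1 SE, and filled points for edgeR adjusted p under 0.05. With sgERG the 5 start-site and gene estimates at the top all lie below 0, from -0.61 to -0.26, and 4 of them are filled, while with ETV6_R399C over tagBFP the proximal start and RUNX1-202, at 0.48 and 0.50, exceed the distal start at 0.13.

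The exon that the common form of the fusion joins to ETV6 exon 5 is exon 2 of RUNX1-201, on chromosome 21 from 34892925 to 34892963. Among the listed transcripts 4 hold this exon. Their reads summed to 19.1, 23.5 and 29.1 RPM with ETV6_WT, 15.4, 18.3 and 19.7 RPM with ETV6_R399C and 18.6, 31.7 and 24.1 RPM with tagBFP, with overlap between the groups. With sgERG they summed to 65.8, 66.5 and 58.1 RPM and with sgCtrl to 111.1, 93.3 and 110.2 RPM, without overlap, a ratio of 0.605 (exact two-sided permutation p = 0.1, the smallest possible). How many of these reads came from the fusion was not tested.

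Outside both promoters, 8 RUNX1 transcripts were close to 0, with 0.354 to 3.81 RPM in sum per library. RUNX1-209, a non-coding transcript whose start at 35984749 lies upstream of the distal promoter, differed between the experiments. It had 9.31 to 30.1 reads in each of the 9 transgene and tagBFP libraries and 0 reads in each of the 6 guide libraries, where 0 reads allow at most 0.0291 RPM with sgERG and 0.0215 RPM with sgCtrl. RUNX1-211 had 3 or 4 reads in each tagBFP library and 0 in all others. The annotated RUNX1 span overlaps 7 other genes, which had at most 2 reads where listed, and ETV6 overlaps none.

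The genes that work with RUNX1 and ETV6 were counted beside them, from lists that are not independent of earlier results on these libraries. Of the RUNX family and its partner CBFB, a list of 4 genes, 2 were tested in the transgene comparisons and 3 with sgERG. In each comparison RUNX1 was called and the other tested members were not. Of all genes, 36.5% were called with ETV6_WT over tagBFP, 40.9% with ETV6_R399C over tagBFP, 21.4% with ETV6_WT over ETV6_R399C and 14.6% with sgERG. CBFB stood at 184 ± 1.90 CPM with ETV6_WT, 179 ± 4.23 with ETV6_R399C and 175 ± 6.05 with tagBFP (SD, n = 3 each), and at 218 ± 0.704 with sgERG and 223 ± 2.53 with sgCtrl. RUNX3 was below the filter, and RUNX2 was tested with sgERG only (log2 -0.35 ± 0.39 SE, edgeR adjusted p = 0.603).

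Of 22 RUNX1 cofactors 19 were tested. With ETV6_WT over tagBFP 5 rose and 5 fell (median log2 0.06), with ETV6_R399C over tagBFP 9 rose and 4 fell (0.08), with ETV6_WT over ETV6_R399C 2 were higher and 5 lower (0.00), and with sgERG 3 rose and 2 fell (-0.02). The medians of all genes in the same comparisons were -0.00, -0.00, 0.02 and 0.00. Of all genes, 17.6% were higher and 18.9% lower with ETV6_WT over tagBFP, 18.8% and 22.1% with ETV6_R399C over tagBFP, 12.1% and 9.29% with ETV6_WT over ETV6_R399C, and 6.89% and 7.74% with sgERG. CDK6, a cell-cycle kinase that binds RUNX1, rose with ETV6_WT (0.27 ± 0.04 SE, edgeR adjusted p = 3.38e-04) and with ETV6_R399C (0.23 ± 0.04 SE, edgeR adjusted p = 8.26e-04). PRMT1, a methyltransferase that modifies RUNX1, fell with both, by -0.31 ± 0.03 SE (edgeR adjusted p = 2.38e-05) and -0.43 ± 0.03 SE (edgeR adjusted p = 1.82e-06). TLE1, a Groucho-type corepressor, fell with ETV6_WT (-0.25 ± 0.03 SE, edgeR adjusted p = 1.96e-05), and EP300, an acetyltransferase, rose with ETV6_R399C (0.26 ± 0.05 SE, edgeR adjusted p = 6.77e-04). LMO2, a bridging factor of blood transcription complexes, fell with sgERG (-0.70 ± 0.09 SE, edgeR adjusted p = 3.48e-04). ERG itself is on this list, and as the target of the guide its fall with sgERG restates the design.

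All 13 ETV6 corepressors and partners were tested. With ETV6_WT over tagBFP 3 rose and 2 fell (median log2 0.03), with ETV6_R399C over tagBFP 7 rose and 3 fell (0.08), with ETV6_WT over ETV6_R399C 2 were higher and 3 lower (-0.02), and with sgERG 3 rose and 2 fell (-0.02). Of all genes, 36.5%, 40.9%, 21.4% and 14.6% were called in these comparisons. HDAC9, a histone deacetylase, averaged 12.7 ± 0.877 CPM with ETV6_WT, 23.7 ± 1.87 with ETV6_R399C and 16.2 ± 0.270 with tagBFP. It rose with ETV6_R399C over tagBFP (0.53 ± 0.07 SE, edgeR adjusted p = 8.77e-05) and was lower with ETV6_WT than with ETV6_R399C (-0.88 ± 0.07 SE, edgeR adjusted p = 6.73e-06). It fell with ETV6_WT over tagBFP (-0.35 ± 0.07 SE, edgeR adjusted p = 0.00246), which did not pass with the average transcript length in the fit. ETV7, the closest relative of ETV6, fell with ETV6_WT (-0.56 ± 0.11 SE, edgeR adjusted p = 0.00144) and with ETV6_R399C (-0.43 ± 0.10 SE, edgeR adjusted p = 0.00624).

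Genes reported as RUNX1 targets in blood cells numbered 31, of which 23 were tested in the transgene groups and 20 in the guide groups. With ETV6_WT over tagBFP 11 rose and 1 fell (median log2 0.17), and with ETV6_R399C over tagBFP 16 rose and 0 fell (0.24), beside 17.6% of all genes higher and 18.9% lower in the first and 18.8% and 22.1% in the second. With ETV6_WT over ETV6_R399C 1 was higher and 6 were lower (-0.10), beside 12.1% and 9.29% of all genes. With sgERG 5 rose and 4 fell (0.07), beside 6.89% and 7.74% of all genes. MYB, a progenitor transcription factor, rose by 0.43 ± 0.02 SE with each (edgeR adjusted p = 1.27e-07 and 1.90e-07) and fell with sgERG by -0.27 ± 0.03 SE (edgeR adjusted p = 4.74e-04).

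GFI1, a repressor of blood progenitor genes, fell with sgERG by -0.50 ± 0.07 SE (edgeR adjusted p = 6.82e-04), while HBEGF, a growth factor, rose by 0.94 ± 0.09 SE (edgeR adjusted p = 6.61e-05). The list holds B-lineage genes that also mark the cell type, CD79A, PAX5 and EBF1 among them, and the summed B-lineage markers were higher with both transgenes than with tagBFP. Their part in these counts was not tested.

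Genes reported as bound or regulated by ETV6::RUNX1 or ETV6 numbered 18, with 15 tested. With ETV6_WT over tagBFP 3 rose and 7 fell (median log2 -0.12), with ETV6_R399C over tagBFP 4 rose and 4 fell (0.02), with ETV6_WT over ETV6_R399C 1 was higher and 7 were lower (-0.15), and with sgERG 2 rose and 6 fell (-0.14). Of all genes, 18.9%, 22.1%, 9.29% and 7.74% were lower in these comparisons, and 17.6%, 18.8%, 12.1% and 6.89% were higher. EPOR, the erythropoietin receptor, averaged 13.7 ± 0.469 CPM with ETV6_WT, 20.5 ± 0.177 with ETV6_R399C and 23.8 ± 0.994 with tagBFP, and its ETV6_WT level was lower than its ETV6_R399C level by -0.56 ± 0.05 SE (edgeR adjusted p = 2.75e-05). PTPRK, a receptor phosphatase, rose with ETV6_R399C by 0.49 ± 0.03 SE (edgeR adjusted p = 1.44e-07) and fell with sgERG by -0.33 ± 0.05 SE (edgeR adjusted p = 0.00163). BCL6, a transcriptional repressor that acts in B cells, was lower with ETV6_WT than with ETV6_R399C by -0.53 ± 0.03 SE (edgeR adjusted p = 1.97e-07). It fell with sgERG by -0.51 ± 0.05 SE (edgeR adjusted p = 3.93e-05).

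The neighbours of both genes were counted in the same way. Of 13 protein-coding genes that start within 500 kb of ETV6, 7 were tested in the transgene groups and 6 in the guide groups, and 2 rose with ETV6_WT over tagBFP, 1 with ETV6_R399C over tagBFP, 1 was higher with ETV6_WT than with ETV6_R399C and none was called with sgERG. Of 13 such genes around RUNX1, 8 were tested, with 3 higher and 0 lower, 3 higher and 1 lower, 1 higher and 0 lower, and 2 higher and 0 lower in the same order of comparisons. These counts stand beside 36.5%, 40.9%, 21.4% and 14.6% of all genes called. RCAN1, a calcineurin inhibitor near RUNX1, rose with ETV6_WT by 0.75 ± 0.03 SE (edgeR adjusted p = 2.72e-09) and with ETV6_R399C by 0.68 ± 0.03 SE (edgeR adjusted p = 1.01e-08). CBR3, a carbonyl reductase near RUNX1, averaged 8.13 ± 0.567 CPM with ETV6_WT, 5.27 ± 0.450 with ETV6_R399C and 4.80 ± 0.388 with tagBFP, and was higher with ETV6_WT than with ETV6_R399C by 0.65 ± 0.11 SE (edgeR adjusted p = 0.00136).

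The genes whose level followed RUNX1 most closely were sought among 10242 protein-coding genes, as a description over 15 libraries with each experiment's mean removed and no test. They were IRF5 (Pearson r 0.95), RRBP1 (0.95), IKZF1 (0.95), SCN4A (0.94) and ADAM17 (0.94). IKZF1, the lymphoid transcription factor Ikaros, averaged 299 CPM with ETV6_WT, 347 with ETV6_R399C, 264 with tagBFP, 242 with sgERG and 295 with sgCtrl. The most opposite were HMGN2 (-0.96), PSMG1 (-0.96), BRMS1 (-0.95), SRSF6 (-0.94) and POLR2F (-0.94). HMGN2, a nucleosome-binding protein, averaged 1099 CPM with ETV6_WT, 984 with ETV6_R399C and 1112 with tagBFP, and 635 with sgERG and 546 with sgCtrl. The libraries of a group share their vector and handling, so these values rest on 5 groups at most. Removing each experiment's mean leaves fewer independent group differences than that.

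For ETV6 the closest were TIAF1 (r 1.00), SLC22A23 (0.99), TMEM263 (0.99), ARPP21 (0.99) and LAPTM5 (0.99) over the same 15 libraries, among which ETV6 differs mainly between the transgene groups and tagBFP. TIAF1 lies within MYO18A, so its reads are uncertain. SLC22A23, a solute carrier, averaged 24.4 CPM with ETV6_WT, 22.6 with ETV6_R399C and 7.15 with tagBFP, and 5.58 with sgERG and 6.76 with sgCtrl. LAPTM5, a lysosomal membrane protein of blood cells, averaged 2135 CPM with ETV6_WT, 1961 with ETV6_R399C and 1301 with tagBFP, and 1727 with sgERG and 1902 with sgCtrl.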

How the data were processed

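Messenger RNA of 15 Reh libraries was sequenced; per the labels' protocols RNA was isolated on columns with DNase and libraries were made with a directional kit. The deposited tables are Salmon output, 1 per library. Per the file headers each lists the length, effective length, TPM and estimated count of a transcript's reads. The submitters' processing notes name Salmon 0.11.3 and hg38. Strand and bias settings were not given in the sources used here, so reads of antisense or overlapping genes may be shared. The deposited estimated counts were not scaled between libraries by the authors, as their totals show, and the deposited TPM values sum to 1000000 in each library.

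Transcripts were matched to GENCODE 29 by identifier without version (90.3% of 167268, 93.2% of these with the same length), and unmatched ones, with 6.67% to 7.56% of a library's reads, were left out of gene sums. Estimated counts were summed per gene (33367 genes), per start site (starts of a gene within 1000 bp joined) or kept per transcript, and rounded to whole numbers. The main test was edgeR 4.0.16 (R 4.3.3), quasi-likelihood, with TMM scaling, filterByExpr at its defaults, and p-values adjusted by Benjamini-Hochberg over all features tested, at 0.05, in 1 fit of 9 transgene and tagBFP libraries and 1 fit of 6 guide libraries. Start-site use was tested with diffSpliceDGE. The biological coefficient of variation was 4.95% and 6.24%. CPM values are scaled over all 15 libraries and relative to named genes, and RPM values are relative to all reads of a library. An SE is the log2 fold change divided by the root of the F statistic and restates the test. Each kind of fit was run on simulated counts with known changes, drawn with the same spread for all features. These counts held no error in the division of reads between transcripts, so that error was not tested.

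Alternatives were DESeq2 1.42.0 or its size factors, no filter, an offset for average transcript length, 1 fit of all 15 libraries, other distances for joining starts, TPM in place of RPM, the replicate number as a block, and leaving out each library. The distal promoter had been defined by the outermost coding start of RUNX1, which is that of RUNX1-214, with at most 6.98 reads in a library. Starts within 5 kb of RUNX1-201 were used instead, a choice made after seeing the data. Replicates of a group differed by more than sampling noise (chi-square per degree of freedom 2.89 to 14.7), and all were counted singly. The members, the lists of genes and the naming rule (both genes with their transcripts, the lists, neighbours within 500 kb, and the genes most like them among those averaging at least 5 CPM, on log2(CPM + 1)) were chosen with earlier results of these data known. Sequences are from GENCODE 29 transcripts and RefSeq promoters, in which both gene symbols were found. One gene of a list is not reported here by name.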

Additional observations from a re-analysis of the deposited data

How the results depend on the processing

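Of the results on single genes, start sites and transcripts, apart from those that answer a comparison, 4917 of the values under alternatives kept direction and side of the threshold, 290 no longer passed, 59 came to pass and 3 reversed. Of those that answer a comparison, counts of calls included, 57 moved, 4 no longer passed, 3 came to pass and the rest kept. The 3 reversals came with the offset for average transcript length, from positive changes in the main fit, and none passed there. L3MBTL1 came to -0.0051 (ETV6_WT over tagBFP). BCL6 came to -0.12 (ETV6_R399C over tagBFP), against 0.12 to 0.13 with 1 library left out of the main fit. ARPP21 came to -0.067 (ETV6_WT over ETV6_R399C), against 0.088 in the main fit. That offset gave 2911, 3428 and 1236 called genes in the transgene comparisons, against 5202, 5826 and 3044, and RUNX1 at -0.15 in ETV6_WT over ETV6_R399C. The cause was not tested. In TPM the distal RUNX1 sum with sgERG was -0.43, against -0.57 in RPM. Joining starts within 100 bp called 167, 150 and 92 start sites for use in the transgene comparisons (90, 71 and 33 before), and within 5000 bp 46 and 38 with ETV6_WT and ETV6_R399C over tagBFP. Without the filter 510 transcripts, against 785, were called in ETV6_WT over ETV6_R399C. One fit of all 15 libraries called 1055 genes higher and 1368 lower there, against 1721 and 1323.

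No pairing of samples by replicate number was detected. The correlation of deviations was -0.18 to 0.09 between libraries of the same number and -0.09 to 0.16 between those of different numbers. With so few libraries per group a weak pairing could be missed. With the replicate block, calls for use were 58, 31, 20 and 12 (31 for sgERG without it), transcript calls 1714, 2118, 321 and 64 (2737, 3232, 785 and 580), and start sites with sgERG 440 (1147). These follow the order ETV6_WT and ETV6_R399C over tagBFP, ETV6_WT over ETV6_R399C, sgERG over sgCtrl.

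With 1 library left out, RUNX1 in ETV6_WT over tagBFP ran from 0.078 to 0.16 and its proximal start from 0.059 to 0.18. Distal use ran from -0.28 to -0.12 in ETV6_R399C over tagBFP and from 0.18 to 0.31 in ETV6_WT over ETV6_R399C. For ETV6_WT over ETV6_R399C, gene calls ran from 2008 to 3110, start-site calls from 1008 to 1761 and use calls from 30 to 57, and with sgERG from 1160 to 2302, 516 to 1129 and 27 to 70. Transcript calls ran from 1727 to 1907, 1770 to 2633, 336 to 597 and 179 to 469 in the order above. ETV6-203, ETV6-204 and ETV6-205, with at most 13.7 reads in a library, were too low to be tested. The rule for the distal promoter as first written gave no ratio, since RUNX1-214 had too few reads.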
